A study of Homo sapiens with 6 samples.

Results

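The genes described here are the subunits of the hypoxia-inducible factors (HIF), the hydroxylases that mark them and the genes that limit them, in human DMS-53 small cell lung cancer cells treated with an iron chelator. They are HIF1A and EPAS1 (alpha subunits), ARNT and ARNT2 (beta subunits), EGLN1, EGLN2 and EGLN3 (prolyl hydroxylases), HIF1AN (the asparaginyl hydroxylase FIH), VHL and CITED2, 10 genes chosen by name. The choice was made with earlier results of these data known. Every probe set whose platform annotation gives exactly 1 of these symbols was taken, which gave 27 of 54675 probe sets on the array. Another 2 probe sets carry EGLN2 together with other symbols and were not used. Of the 27, 23 were bright enough to be tested, among 40950 tested probe sets in all.

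Total RNA was measured on 6 Affymetrix U133 Plus 2.0 arrays, 2 per group. Control cells were kept in RPMI medium, a second group in RPMI with 250 µM desferrioxamine (DFO), a siderophore that enters cells poorly, and the third in RPMI with 25 µM Dp44mT, a thiosemicarbazone that crosses membranes and binds both iron and copper, all for 24 h. All arrays come from this 1 cell line, with no genetic change named in the labels, each group has an array in set 1 and 1 in set 2 of the sample titles, and the labels do not state that the sets came from separate cultures. The p-values thus reflect the array-to-array spread alone, possibly a technical one.

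HIF is a dimer of an alpha and a beta subunit. In the presence of oxygen and iron, the EGLN enzymes hydroxylate prolines of the alpha subunit, the VHL protein then binds it and a ubiquitin ligase marks it for destruction, while HIF1AN hydroxylates an asparagine and blocks its contact with the coactivators CBP and p300. The hydroxylases hold iron in their active site, so chelators are a standard way to stabilize HIF. EGLN1, EGLN3 and CITED2 are themselves known HIF target genes, and their products act back on HIF.

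The core of the DNA element that HIF binds is ACGTG or GCGTG. The 250 bases before each start site were read from RefSeq (GRCh38.p14) for 8 of the 10 genes, all but ARNT2 and VHL, and both strands were searched. The windows of the 4 genes with a probe set that rose are shown because they let a reader set the levels beside the letters of their promoters. Capitals mark every match on either strand, and each window ends at the base before the start site. EGLN1 is at chr1:231422288-231422537 (minus strand), CITED2, at the first of its 3 starts, at chr6:139374649-139374898 (minus), EPAS1 at chr2:46297157-46297406 (plus) and EGLN3 at chr14:33951075-33951324 (minus).
EGLN1: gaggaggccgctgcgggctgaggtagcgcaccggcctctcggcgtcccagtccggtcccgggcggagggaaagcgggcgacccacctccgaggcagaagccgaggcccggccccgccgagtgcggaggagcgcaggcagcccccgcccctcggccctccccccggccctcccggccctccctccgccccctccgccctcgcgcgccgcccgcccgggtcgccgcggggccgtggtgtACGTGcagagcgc
CITED2: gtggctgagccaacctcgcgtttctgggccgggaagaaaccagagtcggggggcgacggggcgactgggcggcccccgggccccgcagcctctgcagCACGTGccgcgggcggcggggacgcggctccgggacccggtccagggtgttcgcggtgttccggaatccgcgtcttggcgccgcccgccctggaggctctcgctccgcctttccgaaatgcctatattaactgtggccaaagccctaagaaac
EPAS1: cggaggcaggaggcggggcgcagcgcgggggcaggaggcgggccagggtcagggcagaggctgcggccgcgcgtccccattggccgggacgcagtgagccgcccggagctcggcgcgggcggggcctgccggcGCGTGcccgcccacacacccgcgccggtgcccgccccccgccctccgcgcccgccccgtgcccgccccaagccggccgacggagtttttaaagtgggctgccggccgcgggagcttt
EGLN3: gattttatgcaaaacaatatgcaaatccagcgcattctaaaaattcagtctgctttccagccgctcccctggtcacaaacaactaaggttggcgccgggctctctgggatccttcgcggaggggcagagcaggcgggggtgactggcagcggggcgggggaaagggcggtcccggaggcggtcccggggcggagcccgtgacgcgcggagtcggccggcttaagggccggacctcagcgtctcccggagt

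EGLN1 held 1 ACGTG that starts 13 bases before the start site. In CITED2 the capitals are CACGTG, in which ACGTG reads on both strands, so its 2 matches overlap. EPAS1 held 1 GCGTG, 117 bases before the start, and these letters were not in the EGLN3 window. Among the other members, HIF1A and EGLN2 also had a match, so that 7 of the 12 windows of members held either motif and 3 held ACGTG. Of all 35116 windows of this length, 18.5% held ACGTG, 32.2% held GCGTG and 43.2% held either, so a match is common and is given as a description of the sequence.

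The array medians of the deposited intensities ran from 49.9 to 88.9, with the lowest values on the set 2 arrays of DFO (63.0) and Dp44mT (49.9). Values below are therefore log2(intensity + 16) after quantile normalization, and across probe sets the paired arrays of a group then correlated at 0.97 (control), 0.907 (DFO) and 0.886 (Dp44mT). Of the neuroendocrine and epithelial marker lists, 11 of 11 and 6 of 6 genes on the array lay above the filter. Of 10 endothelial markers 7 lay above it, with CDH5, CLDN5 and ESAM below, and the list's summed normalized intensity was 974 and 608 in control (sets 1 and 2), 912 and 1954 with DFO, and 989 and 2348 with Dp44mT. One gene, PECAM1, named after its values were seen, carried the set 2 values of that sum, with 247 on the set 2 control array, 1436 with DFO and 1852 with Dp44mT. In set 1 its values were 624 in control, 415 with DFO and 559 with Dp44mT. The other 9 genes summed to 350 and 362 in control, 497 and 517 with DFO and 430 and 496 with Dp44mT. The corresponding sums of 10 fibroblast markers were 1471 and 839, 1189 and 2724, and 1408 and 3383, with 8 of 10 above the filter, and were highest on the chelator arrays of set 2. The neuroendocrine sum was 23884 and 26261 in control and between 15590 and 17965 on the chelator arrays. In that list only INSM1, a neuroendocrine transcription factor gene also named after its values were seen, passed, and only in Dp44mT (log2 −3.37, adjusted p = 0.0154). In DFO it just missed the threshold (log2 −2.21, adjusted p = 0.0523). The other 10 genes summed to 19278 and 19699 in control and between 15154 and 16721 with a chelator. The epithelial sum ran from 23965 to 26982, and the leukocyte sum (6 of 8 genes above the filter) from 698 to 1333. In RNA from bulk cells, fewer cells of a type and less RNA per cell cannot be told apart. TFRC, the transferrin receptor gene named in the series design text as an iron-responsive gene, had a log2 difference of 0.84 (SE 0.19) in DFO and 0.70 (SE 0.19) in Dp44mT, which did not pass (adjusted p = 0.2 and 0.126).

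EGLN1, EGLN3, CITED2 and EPAS1 rose in both chelators, while no probe set of HIF1A, ARNT, ARNT2, HIF1AN or VHL passed the test in either. In DFO, 7 of the 23 tested probe sets rose and 0 fell, and in Dp44mT again 7 rose and 0 fell, at an adjusted p under 0.05 (limma's moderated test, Benjamini-Hochberg over all 40950 probe sets). Of all tested probe sets, 0.589% passed in DFO (0.569% rose and 0.0195% fell) and 1.64% in Dp44mT (1.07% rose and 0.564% fell). Because the members were chosen with earlier results of these data known, their counts beside these shares are a description and no benchmark. The same 7 probe sets passed in both chelators: 3 of EGLN1, 2 of CITED2, 1 of EGLN3 and 1 of EPAS1. Both comparisons use the same 2 control arrays. The median log2 difference of the 23 tested probe sets was 0.39 in DFO and 0.48 in Dp44mT, beside −0.04 and 0.01 over all tested probe sets.

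These calls depended on which arrays were in the fit. Without 1 array, whether control replicate 1 or 2 or DFO replicate 1 or 2, the DFO calls were all lost in limma. All other tested probe sets lost their DFO calls in these fits too, so the loss was not particular to the members. The log2 differences of the 7 then ran from 1.83 to 3.27 in DFO. Not all of the DFO calls held without Dp44mT replicate 1 or Dp44mT replicate 2. The Dp44mT calls were all lost without control replicate 1, control replicate 2, Dp44mT replicate 1 or Dp44mT replicate 2. Those of all other tested probe sets were lost there as well. The log2 differences of the 7 in Dp44mT then ran from 1.54 to 3.29. Not all of the Dp44mT calls held without DFO replicate 1 or DFO replicate 2. The 7 were picked on these same arrays, so differences that stay large in such fits are no separate support. Without both chelator arrays of set 2, 7 of 7 passed in each chelator, but there the spread comes from the 2 control arrays alone, so passing is weak support. In the fits without 1 array, the lone array of a group is assumed to vary like the other groups. On the deposited scale without normalization 0 of the 7 passed in either chelator. Of all 40950 probe sets 31 passed there in DFO and 39 in Dp44mT. In DFO 9 of the 23 member probe sets had an unadjusted limma p under 0.05, beside 1604 of all. In Dp44mT it was 10, beside 6399 of all. With the array medians subtracted 4 of the 7 passed in each chelator, beside 144 of all in DFO and 363 in Dp44mT. The median of all tested probe sets was −0.30 in DFO and −0.46 in Dp44mT on the unnormalized scale.

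EGLN1 encodes the prolyl hydroxylase also called PHD2, regarded as the main oxygen sensor of the family, and it had the largest increases among the members. Its probe set 221497_x_at read 7.69 and 7.61 on the control arrays of sets 1 and 2, 10.91 and 10.73 in DFO and 10.88 and 10.92 in Dp44mT. All 4 chelator arrays stood above both control arrays, by far more than replicates differed. The increase was 9.01-fold in DFO (log2 3.17, SE 0.19, adjusted p = 0.0151) and 9.53-fold in Dp44mT (log2 3.25, SE 0.19, adjusted p = 0.00974), which ranked 41 and 45 of the 40950 probe sets.

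The other EGLN1 probe sets moved the same way but by different amounts. The probe set 224314_s_at read 7.31 and 7.07 in control, 10.37 and 10.06 in DFO and 10.40 and 10.24 in Dp44mT, a rise of 8.12-fold in DFO (log2 3.02, SE 0.22, adjusted p = 0.0153) and 8.76-fold in Dp44mT (log2 3.13, SE 0.22, adjusted p = 0.011). The brightest, 223046_at, read 9.28 and 9.13 in control, 11.58 and 11.51 in DFO and 11.34 and 11.47 in Dp44mT, with smaller rises of 5.08-fold in DFO (log2 2.34, SE 0.19, adjusted p = 0.0177) and 4.61-fold in Dp44mT (log2 2.20, SE 0.19, adjusted p = 0.0165). Its groups do not overlap either. On the deposited scale 223046_at ran from 723 and 746 in control to 4038 and 2045 in DFO and 2961 and 1588 in Dp44mT. With the array medians subtracted this probe set missed the threshold in both chelators (log2 2.17, adjusted p = 0.054, and 1.91, adjusted p = 0.051).

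The dimmest EGLN1 probe set, 223045_at, read 4.77 and 4.55 in control, 6.90 and 5.84 in DFO and 7.05 and 6.22 in Dp44mT. Its control values lie below the filter limit of 5.55, so it entered the test only through the chelator arrays, and its set 2 chelator arrays stood well below those of set 1. The log2 differences of 1.71 (SE 0.45) and 1.98 (SE 0.45) did not pass (adjusted p = 0.264 and 0.0971), although with linear scaling the Dp44mT difference did (2.13, adjusted p = 0.0465). Its deposited control intensities of 12.6 and 9.28 lie under the pseudocount of 16, and with a pseudocount of 1 the differences were 2.73 and 3.06.

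**Figure D1:**
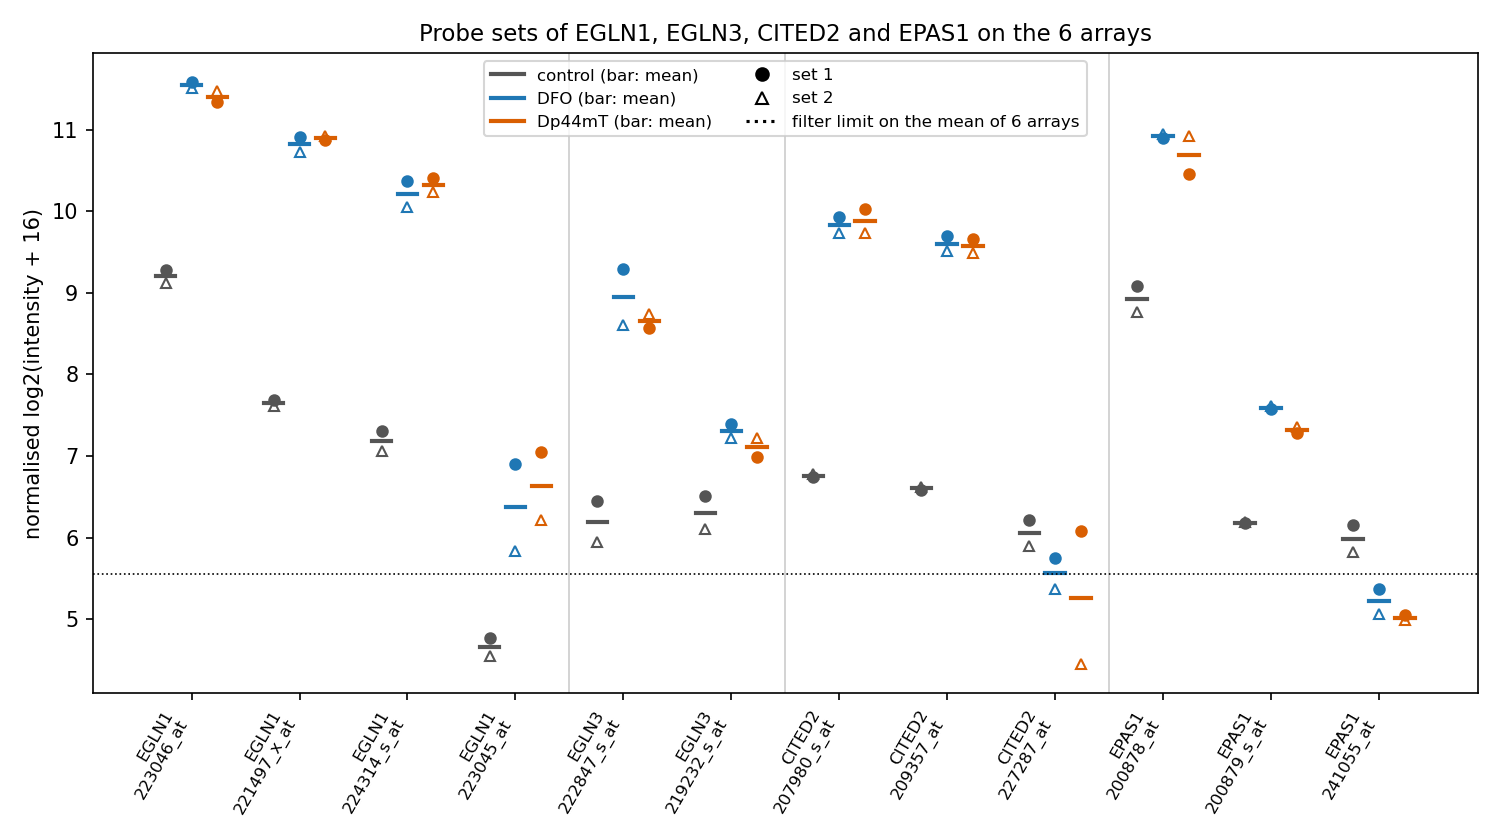
Normalised log2(intensity + 16) of each probe set of EGLN1, EGLN3, CITED2 and EPAS1 on the 6 arrays (vertical axis), by probe set (horizontal axis), with filled circles for set 1, open triangles for set 2, bars for the mean of 2 arrays and a dotted line at the filter limit of 5.55. The chelator arrays stand above both control arrays in 10 of the 12 probe sets, and 227287_at of CITED2 and 241055_at of EPAS1 do not rise.

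EGLN3 encodes PHD3, the prolyl hydroxylase whose transcript is known to be the most inducible of the family in many cell types. Its probe set 222847_s_at read 6.45 and 5.94 in control, 9.29 and 8.60 in DFO and 8.57 and 8.74 in Dp44mT. All 4 chelator arrays lay above both control arrays. It rose by 6.73-fold in DFO (log2 2.75, SE 0.32, adjusted p = 0.043) and 5.48-fold in Dp44mT (log2 2.46, SE 0.32, adjusted p = 0.0353). Its DFO call held in 7 of 12 alternatives other than leaving out 1 array, and its Dp44mT call in 9 of 12.

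The second EGLN3 probe set, 219232_s_at, gave a far smaller difference. It read 6.51 and 6.10 in control, 7.39 and 7.22 in DFO and 6.99 and 7.22 in Dp44mT, so that all chelator arrays were still the higher ones. Its log2 differences of 1.00 (SE 0.23) and 0.80 (SE 0.23) did not pass (adjusted p = 0.216 and 0.143). EGLN2, which encodes PHD1, had a single probe set of its own, 227147_s_at, which lay below the filter and was not tested. It read 5.30 and 5.72 in control, 5.32 and 5.47 in DFO and 5.06 and 6.07 in Dp44mT, and the 3 groups overlap.

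CITED2 encodes a small protein that competes with HIF alpha subunits for CBP and p300 and so dampens their activity. Its probe set 207980_s_at read 6.74 and 6.78 in control, 9.93 and 9.73 in DFO and 10.02 and 9.74 in Dp44mT. This was a rise of 8.43-fold in DFO (log2 3.07, SE 0.21, adjusted p = 0.0151) and 8.71-fold in Dp44mT (log2 3.12, SE 0.21, adjusted p = 0.00974), ranking 47 and 53 of all tested probe sets. The probe set 209357_at gave nearly the same size, 7.99-fold in DFO (log2 2.998, SE 0.19, adjusted p = 0.0151) and 7.83-fold in Dp44mT (log2 2.97, SE 0.19, adjusted p = 0.00974).

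The third CITED2 probe set, 227287_at, did not follow them. It read 6.22 and 5.90 in control, 5.75 and 5.37 in DFO and 6.08 and 4.45 in Dp44mT, and its log2 differences of −0.50 (SE 0.54) and −0.80 (SE 0.54) did not pass (adjusted p = 0.77 and 0.405). Only its Dp44mT array of set 2 stood far from the others, at a deposited intensity of 2.70 against 58.1 in set 1. Averaged over its 3 probe sets, CITED2 had a log2 difference of 1.86 in DFO (adjusted p = 0.0535) and 1.77 in Dp44mT (adjusted p = 0.0384), so the DFO call depends on keeping the probe sets apart.

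EPAS1, the gene of HIF-2alpha, was the only subunit gene among the 4 with a probe set that passed. Its probe set 200878_at read 9.08 and 8.76 in control, 10.89 and 10.94 in DFO and 10.46 and 10.92 in Dp44mT, with no overlap between chelator and control arrays. It rose by 3.99-fold in DFO (log2 2.00, SE 0.25, adjusted p = 0.0497) and 3.40-fold in Dp44mT (log2 1.77, SE 0.25, adjusted p = 0.0413), the weakest of the calls. Of 12 alternatives other than leaving out 1 array, 6 kept the DFO call and 8 the Dp44mT call, and the DFO call was among those lost with no filter on dim probe sets (adjusted p = 0.0609).

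The probe set 200879_s_at of EPAS1 lay just outside the threshold. It read 6.18 and 6.19 in control, 7.58 and 7.61 in DFO and 7.29 and 7.36 in Dp44mT, and the log2 differences of 1.41 (SE 0.18) and 1.14 (SE 0.18) had adjusted p of 0.0525 and 0.0541. The third, 241055_at, lay below the filter, read 6.15 and 5.82 in control, 5.37 and 5.07 in DFO and 5.05 and 4.99 in Dp44mT, and was the lower in all 4 chelator arrays. EPAS1 is strongly expressed in endothelium. Whether endothelial RNA contributed to the EPAS1 values was not tested. The endothelial marker sum was high on the chelator arrays of set 2 mainly through PECAM1, and CDH5, CLDN5 and ESAM lay below the filter. In set 1 the sum was 974 in control, 912 in DFO and 989 in Dp44mT, of which PECAM1 made up 624, 415 and 559. Against the control array of the same number, 200878_at was higher by 1.81 in DFO and 1.38 in Dp44mT in set 1. In set 2 it was higher by 2.18 and 2.16. Averaged over the 3 probe sets, EPAS1 had log2 differences of 0.88 and 0.65 that did not pass (adjusted p = 0.13 and 0.115).

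HIF1A, which encodes the alpha subunit that is controlled mainly through the stability of its protein, was bright and nearly flat. Its 1 probe set, 200989_at, read 10.78 and 11.03 in control, 11.05 and 11.02 in DFO and 10.86 and 10.79 in Dp44mT, so that the control arrays span most of the range. The log2 difference was 0.13 in DFO (95% interval −0.36 to 0.62, adjusted p = 0.828) and −0.08 in Dp44mT (−0.56 to 0.41, adjusted p = 0.818). Both intervals lie below the EPAS1 200878_at differences of 2.00 and 1.77. The sign in DFO turned with the scaling, to −0.29 on the deposited scale and −0.06 with the array medians subtracted.

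ARNT, the common partner of the alpha subunits, had 7 probe sets, of which 6 were tested and 0 passed in either chelator, with 0 of the 6 at an unadjusted p under 0.05. The brightest, 218221_at, read 7.70 and 7.66 in control, 7.86 and 7.37 in DFO and 7.39 and 6.91 in Dp44mT. Its log2 difference was −0.06 in DFO (95% interval −0.74 to 0.62) and −0.52 in Dp44mT (−1.20 to 0.16). The other 5 tested ranged from 0.06 to 0.59 in DFO and from −0.62 to 0.98 in Dp44mT. The highest value in each belongs to 233714_at, whose control values of 4.87 and 5.36 lie under the filter limit and whose Dp44mT arrays read 5.27 and 6.91. The seventh, 233724_at, stayed between 4.85 and 5.43 on all arrays and was not tested.

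Between the chelators, both Dp44mT arrays lay below both DFO arrays for 2 of the 6 tested ARNT probe sets, 231016_s_at and 210828_s_at, and the difference passed for 0 of the 6. Over all 23 tested member probe sets this was so for 6, and the reverse for 0, beside 12.4% and 12.9% of all tested probe sets. ARNT2, the paralog known mainly from neural tissue, had 1 probe set, 202986_at, which read 6.57 and 6.87 for control, 6.90 and 6.23 in DFO and 6.42 and 5.76 in Dp44mT. Its log2 differences were −0.16 in DFO (SE 0.35, adjusted p = 0.882) and −0.63 in Dp44mT (SE 0.35, adjusted p = 0.339). Within sets it was 0.32 and −0.64 in DFO and −0.16 and −1.11 in Dp44mT, so the low values come from set 2.

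HIF1AN, the asparaginyl hydroxylase gene, had Dp44mT values below control in all 3 of its probe sets, none of which passed the test. The probe set 59999_at read 8.85 and 8.64 in control, 8.47 and 8.09 in DFO and 8.30 and 7.71 in Dp44mT, and 226648_at read 8.75 and 8.69, 8.56 and 8.21, and 8.15 and 7.80. The third, 218525_s_at, read 7.05 and 7.20 in control, 7.17 and 6.38 in DFO and 6.46 and 6.06 in Dp44mT. Both Dp44mT arrays lay below both control arrays in all 3, as they did for 32.8% of all tested probe sets.

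The HIF1AN log2 differences in Dp44mT were −0.75 for 59999_at (SE 0.28), −0.74 for 226648_at (SE 0.23) and −0.87 for 218525_s_at (SE 0.33). They did not pass (adjusted p = 0.214, 0.16 and 0.21), and their unadjusted p were 0.0418, 0.0208 and 0.04. In DFO the values were −0.47, −0.33 and −0.35, and for 218525_s_at the 2 sets disagreed (0.12 in set 1, −0.82 in set 2).

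VHL, the gene of the ubiquitin ligase subunit that recognizes hydroxylated HIF, gave no clear direction. The probe set 1559227_s_at read 7.30 and 6.87 in control, 6.80 and 7.70 in DFO and 7.27 and 7.87 in Dp44mT. The log2 differences of 0.17 (SE 0.39, adjusted p = 0.891) and 0.48 (SE 0.39, adjusted p = 0.465) were within the spread, the sets disagreed in DFO (−0.50 and 0.84), and both signs turned on the deposited scale. The second probe set, 203844_at, lay below the filter and read 5.42 and 5.42 for control, 5.30 and 4.75 in DFO and 5.19 and 4.62 in Dp44mT.

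**Figure D2:**
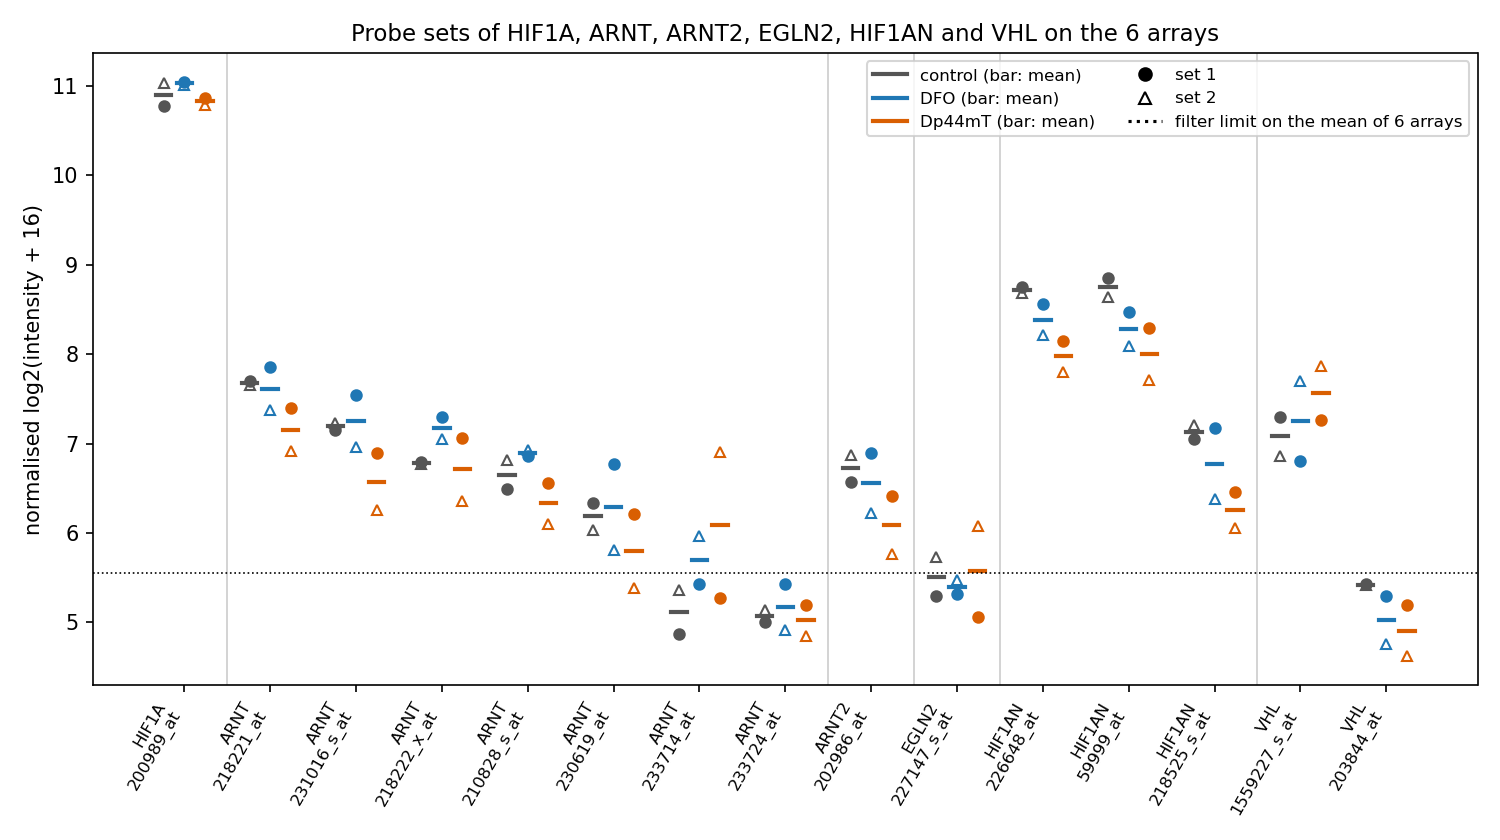
Normalised log2(intensity + 16) of each probe set of HIF1A, ARNT, ARNT2, EGLN2, HIF1AN and VHL on the 6 arrays (vertical axis), by probe set (horizontal axis), with filled circles for set 1, open triangles for set 2, bars for the mean of 2 arrays and a dotted line at the filter limit. HIF1A stays between 10.78 and 11.05, and both Dp44mT arrays of the 3 HIF1AN probe sets lie below both control arrays.

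The direct comparison of the chelators asked whether these genes answered differently to 25 µM Dp44mT and 250 µM DFO, doses that were not matched. None of the 23 member probe sets passed in limma (0 of 23, with 0 at an unadjusted p under 0.05), and 0 of all 40950 passed (0%, with 1347 at an unadjusted p under 0.05). This fit and its intervals do not use the shared deviation of the chelator arrays of a set (correlation 0.83). With the set number as a block in limma, 0 of the 23 passed, with 1 at an unadjusted p under 0.05, beside 2170 of all. For the 7 probe sets that rose, Dp44mT minus DFO ran from −0.29 to 0.11 on the log2 scale. The interval was −0.39 to 0.55 for EGLN1 221497_x_at, −0.47 to 0.57 for CITED2 207980_s_at, −1.08 to 0.49 for EGLN3 222847_s_at and −0.84 to 0.39 for EPAS1 200878_at. A difference of 2-fold or more between the chelators (log2 1) lies outside these intervals for the EGLN1, CITED2 and EPAS1 probe sets named. It lies inside that of EGLN3 222847_s_at, in the direction of higher DFO values. The wider intervals of EGLN1 223045_at (−0.86 to 1.39) and CITED2 227287_at (−1.65 to 1.06), which were not called, also include it. Those of the other tested probe sets of these genes do not.

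**Figure D3:**
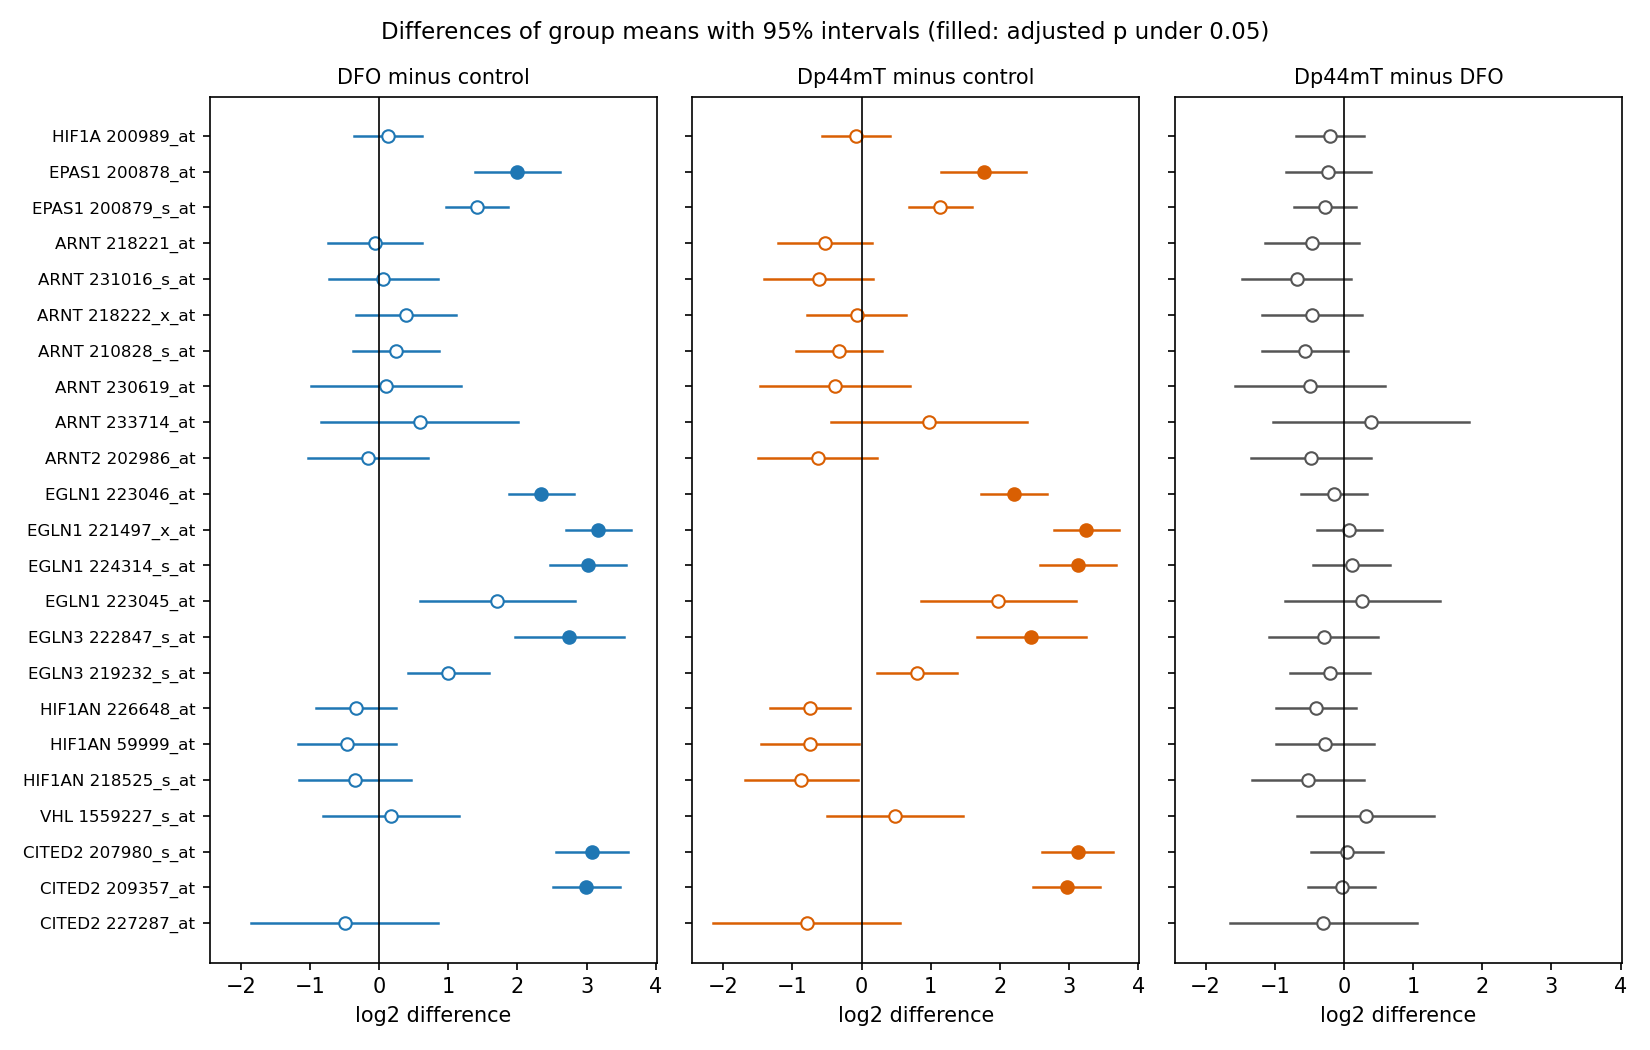
Log2 differences of group means (points, horizontal axis) with 95% intervals for the 23 tested probe sets (vertical axis), DFO minus control, Dp44mT minus control and Dp44mT minus DFO, filled where the adjusted p is under 0.05. The 7 filled probe sets lie between 2.00 and 3.17 in DFO and between 1.77 and 3.25 in Dp44mT, and none is filled between the chelators.

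The differences can also be listed per set, although same-numbered control and chelator arrays did not deviate together. For the 7 probe sets that rose, the chelator array exceeded the control array of its set by 1.81 to 3.23 in set 1 and 2.18 to 3.12 in set 2 under DFO, and by 1.38 to 3.28 in set 1 and 2.16 to 3.31 in set 2 under Dp44mT. Each of these differences was positive, which choosing the 7 on the same arrays had all but fixed. Over the 23 tested probe sets, both DFO arrays lay above both control arrays in 13 and below them in 3, beside 17.0% and 27.8% of all tested probe sets. In Dp44mT it was 10 above and 6 below, beside 28.5% and 32.8%.

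**Figure D4:**
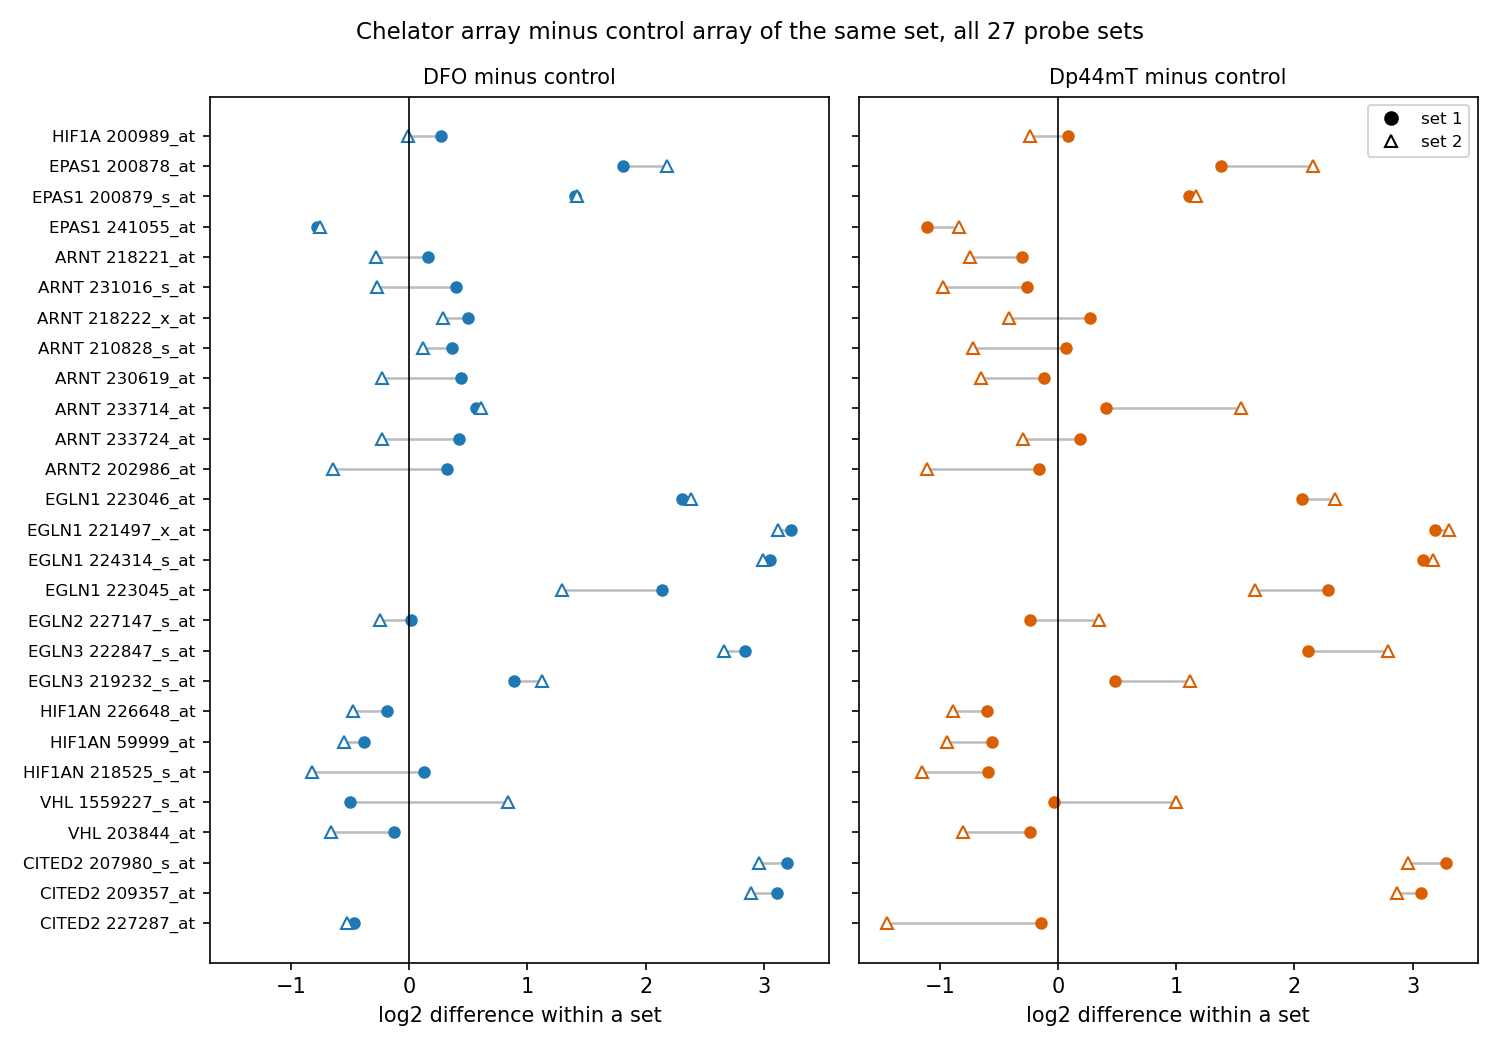
Chelator array minus the control array of the same set (horizontal axis, log2 units) for all 27 probe sets (vertical axis), filled circles for set 1 and open triangles for set 2, DFO on the left and Dp44mT on the right. The called probe sets of EGLN1, EGLN3, CITED2 and EPAS1 lie at 1.38 or above in both sets, while ARNT, ARNT2 and VHL probe sets spread across 0.

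Genes around this core were read from lists. Of 24 further regulators of HIF (subunits of the VHL ligase, coactivators, SIAH ligases, HSP90 genes and others), 22 were on the array and tested, and 0 passed in either chelator in limma, with medians of −0.07 in DFO and −0.12 in Dp44mT. Of all tested probe sets 0.589% and 1.64% passed, so 0 of 22 is near the overall share. SIAH2, a ubiquitin ligase that targets EGLN proteins, had a log2 difference of 0.76 in DFO (SE 0.36, adjusted p = 0.536) and 1.16 in Dp44mT (SE 0.36, adjusted p = 0.157). CREBBP, the gene of the coactivator CBP for which CITED2 and HIF compete, had 0.65 (SE 0.20, adjusted p = 0.348) and 0.55 (SE 0.20, adjusted p = 0.208). Of these regulators, 1 in DFO and 2 in Dp44mT had an unadjusted p under 0.05, beside 4528 and 8817 of all 40950 tested probe sets.

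Of 32 known HIF target genes, chosen with earlier results of these data known, 31 were tested, and 22 rose and 0 fell in DFO (9 did not pass) and 25 rose and 0 fell in Dp44mT (6 did not pass). Of all tested probe sets, 0.569% rose in DFO and 1.07% in Dp44mT. The medians of the list were 2.24 and 2.31, beside −0.04 and 0.01 over all tested probe sets. Because of how the list was chosen, these values are a description and no benchmark. Among the members, EGLN1 223046_at rose by 2.34 and 2.20 and CITED2 207980_s_at by 3.07 and 3.12. The largest rises of the list in DFO were those of BHLHE40, a transcriptional repressor (log2 5.28 in DFO and 5.39 in Dp44mT), ADM, which encodes adrenomedullin (4.45 and 4.40), ANKRD37 (4.12 and 4.26) and PLOD2, a collagen lysyl hydroxylase gene (3.83 and 3.59). In Dp44mT ANGPTL4, which encodes an inhibitor of lipoprotein lipase and was named after its values were seen, rose by more than PLOD2 (3.73, and 3.80 in DFO).

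Some genes followed the members closely over the 6 arrays, measured as the root mean square distance between centred log2 profiles, 1 probe set per gene, among 16866 other genes. Nearest to EGLN1 (223046_at) were VEGFA, the vascular growth factor gene, at 0.0996, KCNE4 at 0.11, ZNF292 at 0.114, PLK2 at 0.122 and BNIP3L, a mitophagy receptor gene, at 0.128. Nearest to CITED2 (207980_s_at) were POFUT4 at 0.0681, the histone demethylase gene KDM3A at 0.0892, MAFF at 0.128, PFKFB3 at 0.158 and RND3 at 0.167. EGLN3 (222847_s_at) had more distant neighbours, GDF15 at 0.169, FAM13A at 0.206, MALL at 0.251, BNIP3L at 0.254 and EGLN1 itself at 0.263. The distances describe these 6 arrays, which hold only 3 conditions.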

How the data were processed

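Gene expression was measured in 6 samples of DMS-53 cells on Affymetrix U133 Plus 2.0 arrays, 2 per group. The deposited values are linear intensities per probe set, for which the submitters' processing notes name Affymetrix Expression Console 1.1; the summarization and normalization methods are not given in the sources used here, and arrays deposited dimmer read lower unless rescaled. Symbols came from GEO's platform annotation, in which 41097 of 54675 probe sets carry 1 symbol, 1801 several and 11777 none. Intensities were taken as log2(intensity + 16), quantile normalized over the 6 arrays and tested per probe set with limma 3.58.1 in R 4.3.3 (3 groups in 1 model with 3 residual degrees of freedom, moderated two-sided test, 95% intervals). The 62 AFFX control probe sets and those with a mean at or below the 25th percentile (5.55) were left out, and p-values were adjusted by Benjamini-Hochberg over the remaining 40950. Fold changes are on the log2(intensity + 16) scale and understate changes of dim probe sets. With 2 arrays against 2, the smallest two-sided p of an exact permutation test is 0.333, so none was used. The procedure was tested on simulated data with independent errors per array, which do not hold the shared deviation of the chelator arrays of a set. Named were every member with all its probe sets, TFRC, up to 4 genes past the threshold with the largest change in the target and regulator lists (the 2 of smallest p where none passed) and the 5 nearest profiles of EGLN1, EGLN3 and CITED2. Lists used 1 probe set per gene, the one with the highest mean. Members and lists were chosen with earlier results of these data known. Alternatives changed the scaling, pseudocount, filter, variance prior, unit, arrays and replicate block.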

Additional observations from a re-analysis of the deposited data

How the results depend on the processing

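In the main setting 241 probe sets passed in DFO and 670 in Dp44mT, of which 7 each were members, and with 2 arrays per group and 3 residual degrees of freedom these counts moved with most choices. Over all tested probe sets, the count in DFO was 31 without scaling, 144 with array medians subtracted, 156 and 437 with pseudocounts of 1 and 64, 393 with the filter at the 50th percentile, 566 with an intensity trend, 57 with only the groups compared and 367 without both chelator arrays of set 2. In Dp44mT it was 39 without scaling, 363 with medians subtracted, 1078 with linear scaling, 342 and 1433 with pseudocounts of 1 and 64, 1114 with the filter at the 50th percentile, 1867 with an intensity trend and 3194 without both set 2 arrays. The split of Dp44mT calls into higher and lower was 439 and 231 in the main setting, 15 and 24 without scaling, 183 and 180 with medians subtracted and 554 and 524 with linear scaling, which put the median of all probe sets at 0.11. The member count in DFO was 0 without scaling, 4 with medians subtracted, 4 with 1 probe set per gene (4 genes), 4 with only the groups compared and 2 genes with probe sets averaged per gene. In Dp44mT it was 0, 4 and 4 for the first 3 of these and 3 genes with probe sets averaged. Leaving out 1 array gave 0 to 57 calls and 0 to 4 members in DFO, and 0 to 469 calls and 0 to 6 members in Dp44mT. Deviations of same-numbered arrays correlated at −0.23 for control and DFO, −0.33 for control and Dp44mT and 0.83 for DFO and Dp44mT. The chelator arrays of a set thus deviated together, and the control array of the same number did not deviate with them. These values do not show whether the arrays of a set were a matched experiment. The replicate block gave 208 calls with 6 members in DFO, where EPAS1 200878_at was lost (adjusted p = 0.0693), and 1245 calls with 8 members in Dp44mT, where EGLN1 223045_at was gained (adjusted p = 0.0426). The comparison of Dp44mT with DFO gave 0 member calls under every alternative run.

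The signs that turned belong to differences that had not passed. Without scaling, the difference became −0.29 for HIF1A 200989_at, −0.16 for ARNT 231016_s_at, −0.051 for ARNT 230619_at and −0.15 for VHL 1559227_s_at in DFO against control, and −0.062 for VHL 1559227_s_at in Dp44mT against control, and −0.22 for EGLN1 221497_x_at, −0.22 for EGLN1 224314_s_at and −0.30 for CITED2 207980_s_at in Dp44mT against DFO. With medians subtracted, the difference became −0.061 for HIF1A 200989_at in DFO against control, and −0.071 for EGLN1 221497_x_at, −0.069 for EGLN1 224314_s_at and −0.15 for CITED2 207980_s_at in Dp44mT against DFO. With linear scaling, the difference became 0.00010 for ARNT 218221_at in DFO against control, and 0.083 for ARNT 218222_x_at in Dp44mT against control. Without both chelator arrays of set 2, the difference became 0.18 for ARNT 218221_at, 0.18 for ARNT2 202986_at, 0.047 for HIF1AN 218525_s_at and −0.28 for VHL 1559227_s_at in DFO against control, and 0.28 for ARNT 218222_x_at, 0.032 for ARNT 230619_at and 0.0197 for CITED2 227287_at in Dp44mT against control, and −0.035 for EGLN1 221497_x_at in Dp44mT against DFO. With 1 array left out, differences of DFO against control ran from −0.38 to 0.59 for ARNT 230619_at, −0.28 to 0.62 for VHL 1559227_s_at, −0.23 to 0.35 for ARNT 231016_s_at, −0.30 to 0.18 for ARNT 218221_at, −0.49 to 0.18 for ARNT2 202986_at and −0.75 to 0.047 for HIF1AN 218525_s_at. Those of Dp44mT against control ran from −0.20 to 0.048 for HIF1A 200989_at, −0.43 to 0.28 for ARNT 218222_x_at, −0.80 to 0.032 for ARNT 230619_at and −1.61 to 0.0197 for CITED2 227287_at. Those of Dp44mT against DFO ran from −0.64 to 0.047 for EGLN3 222847_s_at, −0.12 to 0.062 for CITED2 209357_at, −0.013 to 0.17 for EGLN1 221497_x_at, −0.046 to 0.27 for EGLN1 224314_s_at, −0.094 to 0.19 for CITED2 207980_s_at and −0.46 to 0.0013 for EPAS1 200878_at. The cause of these turns was not tested.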
